A study of Caenorhabditis elegans with 6 samples.

Results

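The 6 genes described here are *gld-1*, *ndk-1*, *nhl-2*, *lin-23*, *sup-26* and *egl-1* of *Caenorhabditis elegans*, which earlier work reported as regulated by the miR-35 family of microRNAs. They were taken by symbol, by a rule that uses no measured value, although earlier results of these data were known when the set was chosen, and they are 6 of the 20447 genes in the count table. Poly(A)+ RNA was sequenced in 6 libraries from 4 groups. WT L1 larvae (strain N2, 2 libraries) and *ebax-1(tm2321)* L1 larvae (strain CZ9907, 2 libraries) hatched overnight without food after bleaching and were collected starved. WT gravid adults (N2) and *ebax-1(tm2321)* gravid adults (strain FX02321), with 1 library each, were grown from such larvae with food for approximately 68 h. All worms were kept at 20 °C, and the RNA input was 3 µg for a larval library and 10 µg for an adult library. The tm2321 allele is described by the study as null, and its authors inferred a further mutation in this line that acts on piRNAs and does not involve *ebax-1*, so the mutant is not a pure model of *ebax-1* loss. The mutant strain also differs between the stages, and the effects of strain and stage cannot be told apart in the mutant.

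The miR-35 family, miR-35 to miR-42, is a group of microRNAs that share a seed and are abundant in oocytes and embryos. A microRNA guides an Argonaute protein to sites that lie mostly in the 3′ UTR of an mRNA and lowers its translation and stability. The family is cleared at the end of embryogenesis, and EBAX-1, the worm ortholog of ZSWIM8, which picks the substrates of a cullin-RING ubiquitin ligase, is needed for that clearance. The question the larval comparison addressed was therefore how mRNAs, among them targets of the family, differ when its members persist into L1.

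The 6 genes act in different processes. GLD-1 is a STAR-type RNA-binding protein that represses translation in the germline. NDK-1 is a nucleoside diphosphate kinase that promotes Ras-MAPK signaling. NHL-2 is a TRIM-NHL protein that works with the microRNA-induced silencing complex. LIN-23 is the F-box protein of an SCF ubiquitin ligase that limits cell division. SUP-26 is an RNA-binding protein of the sex determination pathway, and EGL-1 is the BH3-only protein that starts programmed cell death.

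The genes also differ in structure. In the WBcel235 annotation *gld-1* (WBGene00001595) lies on chromosome I, 7695681 to 7698222, on the plus strand, with 8 coding exons and a 3′ UTR of 812 nt. *ndk-1* (WBGene00009119) lies on the minus strand of chromosome I, 10553116 to 10553913, with 3 coding exons and a 3′ UTR of at most 78 nt. *nhl-2* (WBGene00003598) is on the minus strand of chromosome III, 4893658 to 4899085, and has the longest 3′ UTR of the 6 genes, 1497 nt. *lin-23* (WBGene00003009) is on the plus strand of chromosome II, 6371303 to 6374776, with 3′ UTRs of 638 to 864 nt. *sup-26* (WBGene00006331) is on the minus strand of chromosome III, 4276196 to 4280224, with 22 coding transcripts and 3′ UTRs of 1149 to 1158 nt. *egl-1* (WBGene00001170) is on the minus strand of chromosome V, 14431308 to 14432359, with a 3′ UTR of 174 nt. The median over 16619 genes with an annotated 3′ UTR was 131 nt, so that 4 of the 6 genes stood above the 96th percentile, *egl-1* at percentile 61.6 and *ndk-1* at percentile 28.3. No other annotated gene overlaps any of the 6. Reads were counted over coding sequence, so the 3′ UTRs do not enter the values below.

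Each larval library held between 10937932 and 13425500 counts, the WT adult library 21328335 and the mutant adult library 13148409. Levels are given as CPM (a gene's share of the library's counts, scaled by TMM over all 6 libraries). The targeted gene, *ebax-1*, was at 79.3 and 77.3 CPM in WT L1 larvae and at 42.6 and 48.4 CPM in mutant L1 larvae. In adults it was at 46.4 CPM in WT and 18.5 CPM in the mutant. All mutant libraries were thus below the WT libraries of their stage, and counts remained in all of them. Markers of larval tissues fixed for intestine, muscle, pharynx, neurons and epidermis were detected in all L1 libraries (14 of 14 tested), whereas 6 of 14 sperm markers (among them *spe-11* and *ssp-9*) and the yolk gene *vit-4* were at 0 counts in all 4 L1 libraries. In adults, the 6 yolk genes summed to 38532 CPM in WT and 42741 CPM in the mutant, against 2.7 to 3.98 CPM in L1 larvae.

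In starved L1 larvae, loss of EBAX-1 went with a higher level of *gld-1* and a lower level of *ndk-1*, and the other 3 genes that could be tested, *nhl-2*, *lin-23* and *sup-26*, did not pass the test. Across all genes, 6.59% of the 13756 tested rose and 9.97% fell. Of the 6 reported targets 5 passed the filter on low counts, of which 1 rose and 1 fell, and *egl-1* did not pass it. The median log2 fold change of these 5 was -0.08, against 0.01 over all genes tested. With 5 genes the counts per direction cannot be set apart from those of the other genes.

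**Figure D1:**
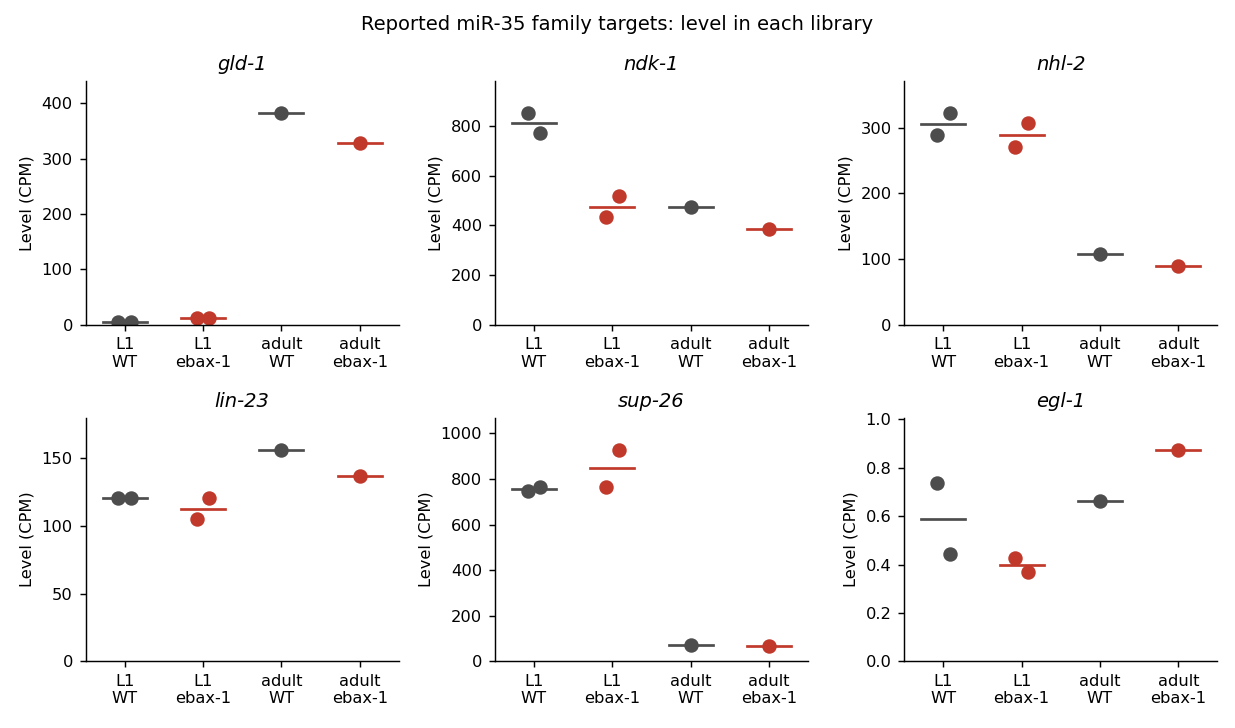
Level of each of the 6 genes (CPM, linear axes from 0, scale set per gene) in every library of WT and *ebax-1* L1 larvae and adults; points are libraries and lines are group means. The mutant L1 libraries lie above WT for *gld-1* (12.4 and 11.8 against 4.33 and 4.60) and below WT for *ndk-1* (432 and 516 against 853 and 773).

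The germline translational repressor *gld-1* had 53 and 52 counts in the WT L1 libraries and 146 and 127 counts in the mutant L1 libraries. These counts correspond to 4.33 and 4.60 CPM in WT and to 12.4 and 11.8 CPM in the mutant. The replicates of each genotype lay close together and the genotypes did not overlap. The mean rose from 4.47 ± 0.192 to 12.1 ± 0.471 CPM (SD, n = 2 libraries each), a 2.697-fold difference. The log2 fold change was 1.43 (SE 0.2, 95% interval 1.02 to 1.85, edgeR adjusted p = 2.42e-05). A larger log2 fold change was seen in under 1% of the genes tested, since 99.5% of them lay below *gld-1*. In whole-worm RNA the number of cells that express a gene and the RNA per cell cannot be told apart.

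*ndk-1*, the nucleoside diphosphate kinase gene, was among the most abundant mRNAs per coding length in all libraries, above the 99th percentile of detected genes in each. It was at 853 and 773 CPM in WT L1 larvae and at 432 and 516 CPM in mutant L1 larvae. Both mutant libraries were below both WT libraries. The mean went from 813 ± 56.1 to 474 ± 59.3 CPM, a ratio of 0.581. The log2 fold change was -0.78 (SE 0.0967, 95% interval -0.98 to -0.58, edgeR adjusted p = 5.09e-06), and 3.29% of the genes tested had a lower one. This fall was close in size to that of *ebax-1* itself (-0.79), which carries the mutation, and a link between the falls was not tested. *ndk-1* has the shortest 3′ UTR of the reported targets. No 3′ UTR was searched here for sites of the family, so the part of the family in the fall was not tested.

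*nhl-2*, which encodes the cofactor of the microRNA-induced silencing complex, was at 288 and 322 CPM in WT L1 larvae and at 270.4 and 307 CPM in the mutant. The genotypes overlapped, and the difference between the means was smaller than the spread between replicates. Its log2 fold change was -0.08 (95% interval -0.27 to 0.11, edgeR adjusted p = 0.598), so that a fall to below 0.827 of the WT level lies outside the interval.

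*lin-23*, the SCF substrate receptor gene, was at 120.7 and 120.4 CPM in WT L1 larvae and at 105 and 120.2 CPM in mutant L1 larvae. The higher mutant library reached the WT level to within 0.2 CPM. The log2 fold change was -0.10 (95% interval -0.29 to 0.08, edgeR adjusted p = 0.491).

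*sup-26*, the sex determination gene, was at 747 and 763 CPM in WT L1 larvae and at 765 and 929 CPM in the mutant. The higher mean of the mutant came mostly from its replicate 2, and replicate 1 was level with WT. The log2 fold change was 0.16 (95% interval -0.04 to 0.36, edgeR adjusted p = 0.292). Without mutant replicate 1 it was 0.29 and passed the test (edgeR adjusted p = 0.0133).

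*egl-1*, the cell death activator, had 9 and 5 counts in WT L1 larvae and 5 and 4 counts in mutant L1 larvae, and 51 counts over all 6 libraries. With 14 counts against 9 the pooled ratio of mutant to WT was 0.671, with an exact binomial interval of 0.256 to 1.66. A difference was therefore not detectable at this depth. The interval covers counting error only, and *egl-1* is known to be transcribed in few cells for a short time.

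Leaving *egl-1* aside, the libraries of the genotypes did not overlap for 4 of the 5 tested genes. The same held for 56.2% of all genes tested, so that a gap between 2 and 2 libraries is common here, and for *lin-23* it was 0.17 CPM wide. The calls of *gld-1* and *ndk-1* were retained under all 10 alternative settings tried, with log2 fold changes of 1.38 to 1.59 for *gld-1* and -0.91 to -0.63 for *ndk-1*. Under scaling by total counts, which moved the median of all genes up by 0.17 on the log2 scale, *nhl-2* and *lin-23* changed sign (0.08 and 0.06) without passing the test and *sup-26* passed it (0.32, edgeR adjusted p = 0.00998).

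**Figure D2:**
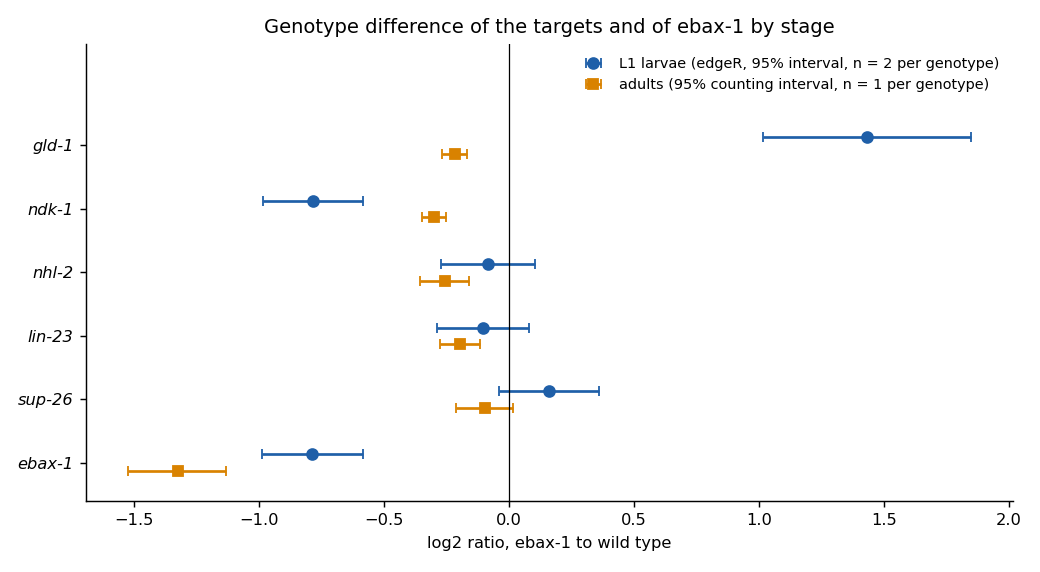
The log2 ratio of *ebax-1* to WT for 5 reported targets and for *ebax-1* in L1 larvae (circles, edgeR estimate with 95% interval) and in adults (squares, 1 library per genotype with a 95% counting interval). In L1 larvae the intervals of *gld-1* and *ndk-1* exclude 0, at 1.43 and -0.78, and the adult ratios of the 5 targets lie between -0.30 and -0.10.

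In gravid adults the 5 targets with at least 50 counts over both libraries were all slightly lower in the mutant, by far less than 2-fold. None of them differed 2-fold or more, as 5.80% of the 13563 genes with as many counts did. Their median log2 ratio was -0.22, and that of all genes was -0.07. The sizes depended on the scaling: with total counts the log2 ratios were -0.13 for *gld-1* (-0.22 as reported), -0.21 for *ndk-1* (-0.30), -0.17 for *nhl-2* (-0.26), -0.11 for *lin-23* (-0.19) and -0.0078 for *sup-26* (-0.10). Adults had a single library of each genotype and thus no replicate check, and the intervals below cover counting error only.

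*gld-1* was at 383 CPM in WT adults and 329 CPM in mutant adults, a ratio of 0.860 (0.830 to 0.891). *ndk-1* was at 475 CPM in WT and 386 CPM in the mutant, a ratio of 0.812 (0.786 to 0.839). These are the genes called in L1 larvae, and in adults both were lower in the mutant. *nhl-2* was at 107 CPM in WT and 89.7 CPM in the mutant, a ratio of 0.837 (0.782 to 0.895). *lin-23* was at 156 CPM in WT and 136 CPM in the mutant, a ratio of 0.874 (0.827 to 0.923). *sup-26* was at 73.2 CPM in WT and 68.4 CPM in the mutant, and the interval of its ratio, 0.935 (0.864 to 1.01), included 1. For *egl-1*, 15 counts in WT and 13 in the mutant gave a ratio of 1.32 (0.579 to 2.98), which leaves the direction undetermined. Replicates of L1 larvae differed by more than counting noise (chi-square per degree of freedom 3.79 in WT and 6.05 in the mutant), so the adult intervals are narrower than the spread that replicates would show.

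Whether the genotype difference itself changed between the stages was tested with an interaction term over all 6 libraries, in which the lone adult libraries were assumed to vary like the larval ones. Of all 16376 genes in that fit 9.15% passed. Among the 6 reported targets 1 passed, *gld-1*, whose log2 difference of adult and larval genotype effects was -1.64 (SE 0.203, edgeR adjusted p = 1.06e-06). It was higher in the mutant in both larval libraries and lower in the single adult library. This was not particular to *gld-1*. The 2 genes with the profiles most like it, described below, had values of -1.39 (*cey-2*) and -1.27 (*puf-11*). The germ cell and oocyte markers called in L1 larvae and named below had -1.79 (*meg-1*), -1.49 (*mex-6*), -1.39 (*mex-5*) and -0.95 (*wago-1*). *ndk-1* missed the threshold (0.49, edgeR adjusted p = 0.0587). It passed when genes with low counts were kept (0.48, adjusted p = 0.0353) or when mutant L1 replicate 2 was left out (0.62, adjusted p = 0.000235). For *nhl-2*, *lin-23*, *sup-26* and *egl-1* the interaction ran from -0.25 to 0.97 and did not pass (edgeR adjusted p of 0.443 or more).

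By stage, in WT, 2 of the 6 genes were higher in adults, *gld-1* and *lin-23*, and 3 were lower, *sup-26*, *nhl-2* and *ndk-1*, while *egl-1* did not pass the test. In the same comparison 43.2% of the 16376 genes tested were higher in adults and 41.1% were lower, so that to be called was the rule.

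*gld-1* rose 83.8-fold from WT larvae to WT adults, from 4.33 and 4.60 to 383 CPM (log2 difference 6.39, SE 0.134, edgeR adjusted p = 5.61e-27). Starved larvae hold a pair of primordial germ cells and gravid adults a full germline. In the mutant the rise was 26.8-fold, from 12.4 and 11.8 to 329 CPM. *sup-26* was 10.5-fold lower in WT adults than in WT larvae, at 73.2 against 747 and 763 CPM (log2 difference -3.40, SE 0.141, adjusted p = 9.43e-20). In the mutant it was 12.5-fold lower. All stage comparisons, here and below, rest on a single adult library per genotype. Their SE and p take the spread from the larval replicates and assume that adults vary likewise. Feeding and RNA input (3 µg and 10 µg) changed with stage, and their effects cannot be told apart from it.

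*nhl-2* was 2.91-fold lower in WT adults (107 against 288 and 322 CPM, adjusted p = 5.44e-13) and *ndk-1* was 1.75-fold lower (475 against 853 and 773 CPM, adjusted p = 4.05e-07), both by edgeR. The adult WT level of *ndk-1* was close to its level in mutant larvae, 474 CPM on average. *lin-23* was 1.27-fold higher in WT adults (156 against 120.7 and 120.4 CPM, edgeR adjusted p = 0.00459). *egl-1* stayed below 1 CPM in all 6 libraries, with a log2 difference of 0.13 (SE 0.722, edgeR adjusted p = 0.873).

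**Figure D3:**
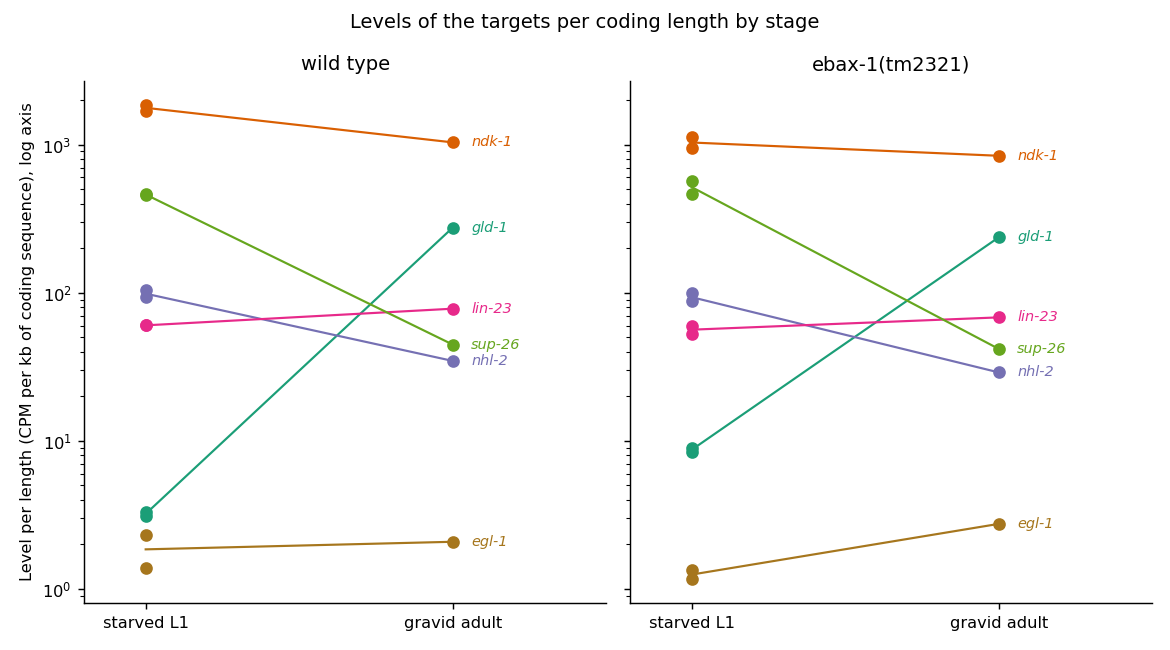
Level per coding length (CPM per kb of coding sequence, log axis) of the 6 genes in starved L1 larvae and gravid adults, for WT (left) and *ebax-1* (right); points are libraries and lines join the larval mean to the adult library. *ndk-1* is highest in each library, and *gld-1* crosses *lin-23*, *nhl-2* and *sup-26* on its way from 3.12 and 3.31 in WT larvae to 276 in WT adults.

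On the scale of CPM per kb of coding sequence, which allows genes to be compared, the order in WT larvae was *ndk-1* (1858 and 1685), *sup-26* (456 and 465), *nhl-2* (93 and 104), *lin-23* (60.3 and 60.2), *gld-1* (3.12 and 3.31) and *egl-1* (2.31 and 1.39). No neighbours in this order overlapped between libraries, although the place of *egl-1* rests on 9 and 5 counts. In mutant larvae the order was the same, with *gld-1* at 8.95 and 8.47, well apart from *egl-1* at 1.34 and 1.16. In WT adults it was *ndk-1* (1035), *gld-1* (276), *lin-23* (78.1), *sup-26* (44.6), *nhl-2* (34.6) and *egl-1* (2.08), and mutant adults had this order as well. *gld-1* thus moved from between percentiles 31.2 and 47.4 of the detected genes in the L1 libraries to percentiles 97.6 and 97.3 in the adult libraries.

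Genes with the most similar profiles were searched among 12059 genes with at least 10 counts in every library, by the root mean square difference of log2 CPM centred on each gene's mean over the 6 libraries. The search used the values described above, so the likeness is a description. The gene most like *gld-1* was *cey-2*, a Y-box RNA-binding protein gene, with a difference of 0.13, and *puf-11*, a gene of the Pumilio family, followed at 0.26. The median gene differed from *gld-1* by 2.72, and *cey-2* was the only gene within 0.25. A fixed cutoff is stricter for a gene with a large stage difference, and the median gene differed from *lin-23* by only 0.668. The filter also left out genes with few counts in larvae, so the small number does not make the profile of *gld-1* rare. *cey-2* was at 10.1 and 10 CPM in WT larvae, 24.1 and 25.19 CPM in mutant larvae, and 646 and 601 CPM in WT and mutant adults. *puf-11* was at 1.72 and 2.04 CPM in WT larvae, 4.09 and 4.91 CPM in mutant larvae, and 211 and 207 CPM in the adults. Both were thus higher in mutant than in WT larvae and far higher in adults, at levels of their own.

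The other genes had many neighbours. *F40A3.2* (0.04) and the nuclear hormone receptor gene *nhr-62* (0.08) were closest to *ndk-1*, with 233 genes within 0.25. *egl-23*, a potassium channel gene, and *dapk-1*, a death-associated protein kinase gene, were closest to *nhl-2*, with 1157 genes within 0.25. *Y49F6B.2* and *toe-1* were closest to *lin-23*, with 1508 genes within 0.25, and *F13B6.3* and *Y41D4A.7* to *sup-26*, with 222. *egl-1* had too few counts for the search.

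The pathways in which the 6 genes act were then described in L1 larvae through 8 lists of partner genes. Of 142 partner genes tested 17 rose and 10 fell, that is 19% called against 16.6% of all genes, and their median log2 fold change was 0.05. Of the 17 that rose, 14 were on the lists around *gld-1* and the SCF ligase. Over all genes, total-count scaling gave 2341 rises and 728 falls among 13756, against 907 and 1371 in the reported fit. DESeq2 gave 380 rises and 887 falls among 18426 genes with any count in L1 larvae, not all of which got an adjusted p. At an unadjusted p under 0.05 with edgeR, 1820 of the 13756 genes were higher and 2100 lower. List counts given below for these settings are to be read beside these.

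**Figure D4:**
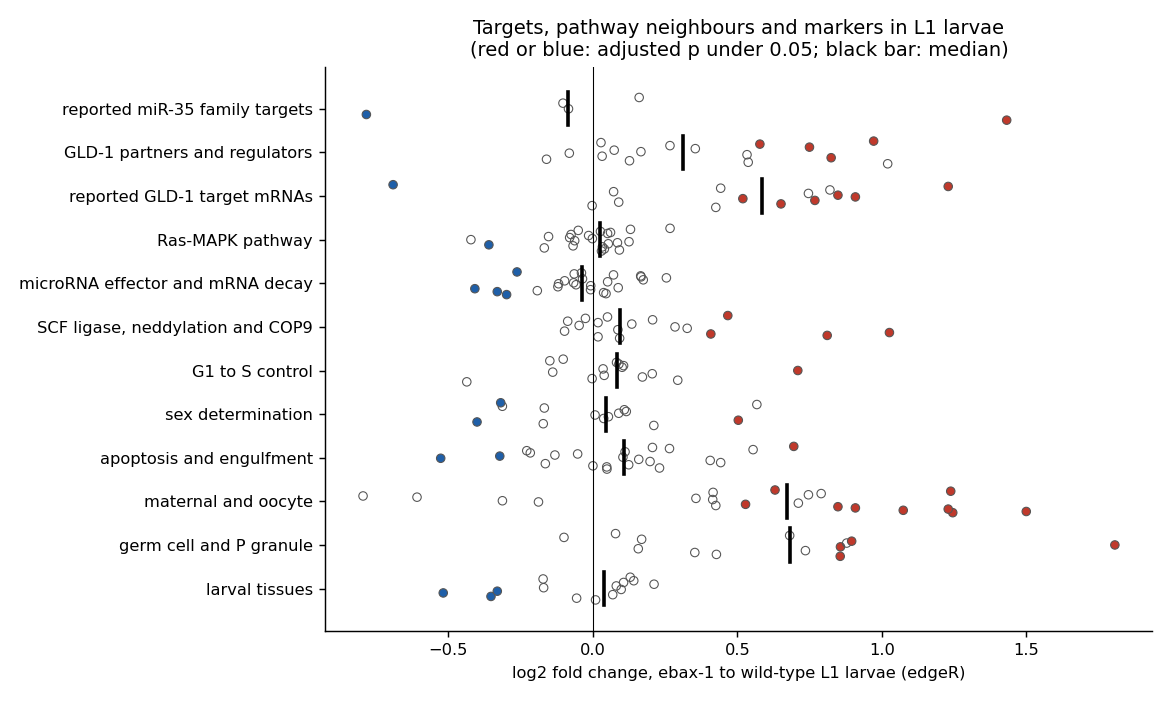
The log2 fold change of *ebax-1* to WT L1 larvae (edgeR) for the tested reported targets, 8 lists of partner genes and 3 lists of cell type markers; each point is a gene, red or blue where it rose or fell with an adjusted p under 0.05, and black bars are medians. The medians are farthest above 0 for the lists around *gld-1* (0.31 and 0.58) and the markers of oocytes and germ cells (0.67 and 0.68), and those of the other lists lie between -0.04 and 0.11.

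Around *gld-1*, 4 of 16 tested partners and regulators rose and 0 fell, with a median of 0.31. At an unadjusted p under 0.05, 7 were higher and 0 lower. Those called were *gld-3*, which encodes a Bicaudal-C family RNA-binding protein (10.4 ± 0.257 to 18.4 ± 3.99 CPM, log2 fold change 0.82, edgeR adjusted p = 0.00153), *cpb-3* of the CPEB family (0.97), *sygl-1*, a target of Notch signaling in germline stem cells (0.75), and *daz-1* of the DAZ family (0.58). The Pumilio-family repressors of *gld-1*, *fbf-1* (1.02) and *fbf-2* (0.54), did not pass (edgeR adjusted p of 0.112 or more), and their near-identical sequences make their unique counts uncertain. Without mutant replicate 1 the list had 2 calls, *cpb-3* (0.69, edgeR adjusted p = 0.085) and *daz-1* (0.52, adjusted p = 0.0624) being lost, and with DESeq2 it had 1. *daz-1* was also lost without WT replicate 1 (0.46, adjusted p = 0.211) and *sygl-1* without WT replicate 2 (0.52, adjusted p = 0.176). With total-count scaling 7 of the list rose and 0 fell, with a median of 0.47.

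Of the mRNAs reported as bound or repressed by GLD-1, 6 of 14 rose and 1 fell, with a median of 0.58. *spn-4*, a maternal RNA-binding protein gene, went from 14 ± 1.81 to 32.9 ± 6.19 CPM (log2 fold change 1.23, edgeR adjusted p = 4.36e-06). *glp-1*, the germline Notch receptor gene, went from 9.16 ± 0.565 to 15.7 ± 1.2 CPM (0.77), and *mex-3*, which encodes a KH-domain repressor, from 29.2 ± 2.08 to 46 ± 0.922 CPM (0.65). *lin-41*, a TRIM-NHL gene of the heterochronic pathway, fell from 286 ± 7.3 to 178 ± 3.32 CPM (-0.69, edgeR adjusted p = 4.02e-06) and was the most abundant of these in WT larvae. Of the 14 genes 12 had a log2 fold change above 0. With total-count scaling 9 rose and 1 fell. Of the same 14 genes 5, *spn-4* among them, also belong to the oocyte markers below.

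Some markers of germ cells and oocytes were higher in the mutant larvae as well. Of 13 tested germ cell and P granule genes 4 rose and 0 fell (median 0.68), led by *meg-1* (1.81) and the Argonaute gene *wago-1* (0.90). Of 20 tested maternal and oocyte genes 9 rose and 0 fell (median 0.67), led by the zinc-finger genes *mex-6* (1.5) and *mex-5* (1.24), which are close paralogs. The list did not move as a whole, as 16 of the 20 had a log2 fold change above 0. Below 0, without passing, were *chs-1* (-0.80), *perm-2* (-0.61), *egg-2* (-0.31) and *egg-1* (-0.19). At an unadjusted p under 0.05 the germ cell list had 8 genes higher and 0 lower, and the oocyte list 13 and 0. Of all 13756 genes 1820 were higher and 2100 lower at that threshold. Without mutant replicate 1 the oocyte list had 5 rises and 1 fall. With total-count scaling 8 germ cell genes and 12 oocyte genes rose and 0 of either list fell. The germ cell markers summed to 134 and 140.1 CPM in WT larvae, to 203 and 173 CPM in mutant larvae, and to 2171 and 1877 CPM in WT and mutant adults. The oocyte markers summed to 137 and 134 CPM in WT larvae, to 284 and 217 CPM in mutant larvae, and to 9878 and 9082 CPM in adults. Relative to the WT larval mean, *gld-1* was at 2.78 and 2.63 in the mutant larvae, the germ cell markers at 1.48 and 1.26, and the oocyte markers at 2.10 and 1.60. The part of these markers in the rise of *gld-1* was not tested.

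**Figure D5:**
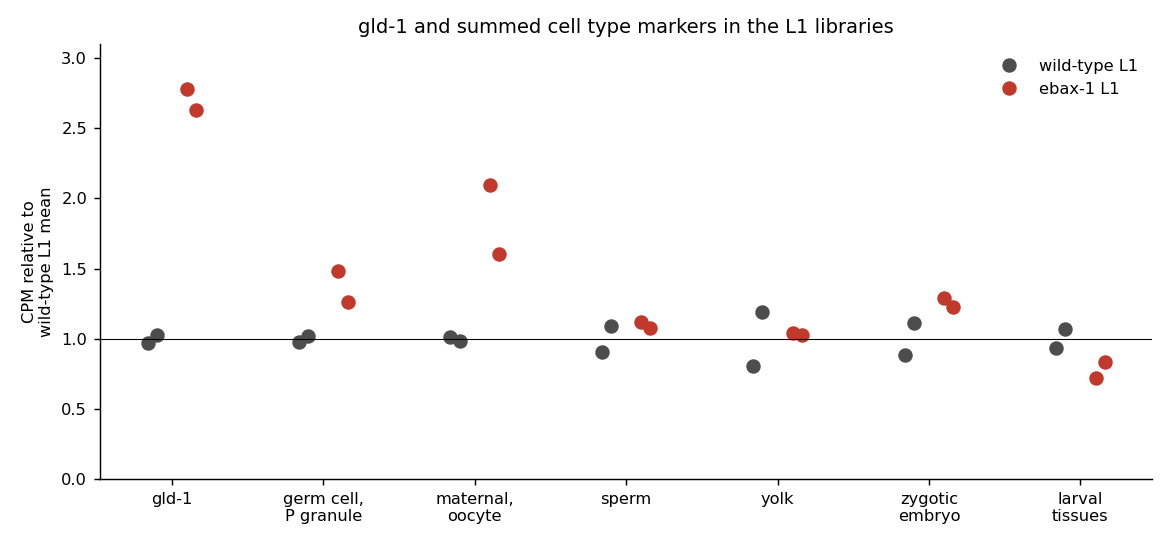
Level of *gld-1* and summed level of 6 marker lists in each L1 library, relative to the mean of the WT L1 libraries (CPM ratio, axis from 0). *gld-1* is at 2.78 and 2.63 in the mutant libraries, the oocyte markers are at 2.10 and 1.60, and the germ cell markers at 1.48 and 1.26. The embryo markers are at 1.29 and 1.23 in these libraries, the sperm markers at 1.12 and 1.08, and the yolk markers at 1.05 and 1.03. The larval tissue markers are at 0.73 and 0.84.

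The other marker lists had few tested genes or few calls. Yolk genes summed to 3.49 and 3.43 CPM in mutant larvae against 2.7 and 3.98 CPM in WT, and 0 of 3 tested passed (*vit-6* 0.64 and *vit-1* -0.20, edgeR adjusted p of 0.46 or more). Sperm genes summed to 26.3 and 25.3 CPM in mutant larvae against 21.2 and 25.7 CPM, and 0 of 5 tested passed. Genes of early zygotic embryos summed to 8 and 7.59 CPM in mutant larvae against 5.48 and 6.9 CPM, and 0 of 2 tested passed. In these 3 lists 0 genes reached an unadjusted p under 0.05 with edgeR, and DESeq2 called 0. DESeq2 gave no adjusted p for *vit-6*, *vit-1* and the embryo gene *ref-1*, so it could not call them. Other settings did call genes: the embryo list had 1 rise with no filter on low counts, 1 with all 6 libraries in the fit and 1 without mutant replicate 2, and the sperm list had 1 rise without mutant replicate 2. The median of the embryo list was 0.10 over its 2 tested genes, but 0.73 over all 10 genes with no filter and 0.75 with DESeq2, most of them at a few counts per library. Larval tissue genes summed to 19754 and 22783 CPM in the mutant against 25396 and 29064 CPM in WT. The myosin gene *unc-54* alone was at 9494 and 10907 CPM in the mutant and at 13481 and 15619 CPM in WT. Of the 14 larval tissue genes 3 fell, led by *unc-54* (-0.52) and the intestinal intermediate filament gene *ifb-2* (-0.35), with a list median of 0.04. Of the same genes 0 rose, also at an unadjusted p under 0.05, although 8 of 14 had a log2 fold change above 0. Without WT replicate 1 the list had 1 fall and without WT replicate 2 it had 0. With total-count scaling 4 of the larval tissue genes rose and 1 fell.

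Around *ndk-1*, the Ras-MAPK list hardly moved. Of 23 genes tested 0 rose and 1 fell by edgeR, *ksr-1*, a scaffold of the kinase cascade (52.3 ± 1.92 to 40.9 ± 2.08 CPM, log2 fold change -0.36, adjusted p = 0.0169), and the median was 0.03. An unadjusted p under 0.05 gave the same counts, 0 and 1. Raf and ERK, encoded by *lin-45* (-0.07) and *mpk-1* (0.12), did not pass (edgeR adjusted p of 0.408 or more). The list's summed level was 1559 and 1603 CPM in WT and 1541 and 1608 CPM in the mutant. The *ksr-1* call was lost with DESeq2 (0 called) and when WT replicate 1, WT replicate 2 or mutant replicate 2 was left out (-0.40 to -0.30, edgeR adjusted p of 0.0553 to 0.157). With total-count scaling 2 of the list rose and 0 fell.

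Around *nhl-2*, 0 of 24 genes for microRNA effectors and mRNA decay rose and 4 fell, with a median of -0.04. That is 16.7% called, against 16.6% of all genes tested, so the list does not stand out. An unadjusted p under 0.05 gave the same counts, and DESeq2 0 and 3. The 4 were *vig-1*, a gene for a protein of the silencing complex (607 ± 13.5 to 459 ± 50.9 CPM, log2 fold change -0.41, edgeR adjusted p = 0.0034), the GW182-family gene *ain-2* (-0.33), the Argonaute gene *alg-1* (-0.30) and the exonuclease gene *xrn-1* (-0.26). The falls were small, and *cgh-1*, the DEAD-box helicase partner of NHL-2, was level (-0.01, adjusted p = 0.975). Calls were lost when either WT library was left out, which left a single WT library and fewer calls over all genes. Without WT replicate 1 the log2 fold changes of the 4 were -0.39 to -0.20. *xrn-1* was lost in 8 of 10 alternatives. With total-count scaling 3 of the list rose and 0 fell.

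Around *lin-23*, 4 of 17 genes of the SCF ligase, neddylation and COP9 signalosome rose and 0 fell, with a median of 0.09. That is 23.5% called, against 16.6% of all genes tested. At an unadjusted p under 0.05, 5 were higher and 0 lower, and DESeq2 called 2 and 0, as did edgeR without WT replicate 2. With total-count scaling, under which 2341 of all 13756 genes rose and 728 fell, 8 rose and 0 fell, with a median of 0.25. *ned-8*, the ubiquitin-like modifier of cullins, went from 8.11 ± 0.204 to 16.6 ± 2.81 CPM (log2 fold change 1.03, edgeR adjusted p = 0.000231). The Skp1-related gene *skr-2* (0.81), the signalosome gene *csn-6* (0.47) and the RING gene *rbx-1* (0.41) rose as well. Like the genes around *gld-1* that rose, all 4 were higher in WT adults than in WT larvae. The differences were 13.5-fold for *skr-2*, 3.61-fold for *rbx-1*, 3.39-fold for *ned-8* and 3.06-fold for *csn-6*, against 1.27-fold for *lin-23*. The part of germ cell and oocyte RNA in these rises was not tested. The calls of *rbx-1* and *csn-6* did not hold over all 4 libraries left out: *rbx-1* was lost in 3 cases (0.34 to 0.41, all but mutant replicate 1) and *csn-6* without WT replicate 2 (0.44) or mutant replicate 1 (0.32). *cul-1*, the cullin with which LIN-23 acts, did not pass (0.09, edgeR adjusted p = 0.605), and neither did *skr-1* (0.02), a close paralog of *skr-2* with which reads could be shared. Of 15 genes of G1 to S control, the step that LIN-23 limits, 1 rose, the E2F gene *efl-1* (10.1 ± 0.272 to 16.6 ± 2.46 CPM, 0.71, edgeR adjusted p = 0.00438), and 0 fell (1 at an unadjusted p under 0.05, and 0 with DESeq2). *efl-1* was also 5.01-fold higher in WT adults than in WT larvae. With total-count scaling 2 of the G1 to S list rose and 0 fell. The inhibitor gene *cki-1* was at a log2 fold change of 0.04 and the cyclin E gene *cye-1* at 0.00, neither of which passed.

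Around *sup-26*, 1 of 14 tested sex determination genes rose and 2 fell, with a median of 0.05. That is 21.4% called, against 16.6% of all genes tested. The dosage compensation gene *sdc-3* fell from 77.8 ± 0.721 to 59.1 ± 2.81 CPM (log2 fold change -0.40) and the DEAD-box gene *laf-1* from 72.9 ± 0.097 to 58.7 ± 1.24 CPM (-0.32), while the nuclear receptor gene *sex-1* rose (0.50). DESeq2 called 0 rises and 1 fall in this list. The *laf-1* call was lost when either WT library was left out (-0.32 both times) and that of *sex-1* without WT replicate 1 (0.29) or mutant replicate 1 (0.41). *tra-2*, whose mRNA SUP-26 is reported to repress, was level (0.09, edgeR adjusted p = 0.573). With total-count scaling 3 of the list rose and 0 fell.

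Around *egl-1*, 1 of 22 tested genes of apoptosis and engulfment rose and 2 fell, with a median of 0.11. That is 13.6% called, against 16.6% of all genes tested. The nuclease genes *cps-6* (168 ± 4.77 to 117 ± 2.26 CPM, log2 fold change -0.53, edgeR adjusted p = 0.000121) and *nuc-1* (-0.32) fell, and *psr-1*, which acts in engulfment, rose (0.69). *psr-1* was also 14.3-fold higher in WT adults than in WT larvae. DESeq2 called 0 rises and 2 falls in this list. The *psr-1* call was lost without WT replicate 1 (0.56) or mutant replicate 1 (0.54), and that of *nuc-1* without WT replicate 1 (-0.36) or WT replicate 2 (-0.29). The core death genes *ced-9* (0.05), *ced-4* (0.23) and *ced-3* (0.05), which act below EGL-1, did not pass (edgeR adjusted p of 0.336 or more). With total-count scaling 6 of the list rose and 1 fell.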

How the data were processed

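The values deposited by the authors are raw counts of reads per gene in 6 libraries. Their methods and processing notes state that 50-nt single-end reads of stranded libraries went through STAR 2.7.1a, that reads mapping to more than a single place were dropped, and that featureCounts counted the rest over coding sequence on the reverse strand (WS245 in the methods, WBcel235 in the notes). UTR reads and reads shared by near-identical genes are therefore not counted. The larval libraries are described as independent biological replicates. The authors used DESeq2 for their comparison.

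L1 genotypes were compared over the 4 L1 libraries with edgeR 4.0.16 (R 4.3.3): filterByExpr (minimum count 10, 13756 genes), TMM, the two-sided quasi-likelihood F-test and Benjamini-Hochberg adjustment over all genes tested, with a threshold of 0.05. An exact permutation test of 2 against 2 libraries could not pass this threshold. Stage and interaction came from 1 fit over all 6 libraries (16376 genes). All printed CPM use TMM over the 6 libraries. For adult log2 ratios a prior count of 1 was added and genes needed 50 counts over both libraries. Intervals of these ratios are exact binomial at 95%. Lists are described by counts and medians, without a set test.

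The members, the 8 partner lists and the 6 marker lists were chosen with earlier results of these data known. Named genes were the 6 members, *ebax-1*, the 4 called genes with the smallest adjusted p in each partner list (2 in each marker list, or 2 where none passed) and the 2 genes most like each member (pseudocount 0.5 CPM). Others (*fbf-1*, *fbf-2*, *lin-45*, *mpk-1*, *cgh-1*, *cul-1*, *skr-1*, *cki-1*, *cye-1*, *tra-2*, *ced-3*, *ced-4*, *ced-9*, and the markers *spe-11*, *ssp-9* and *vit-4*) were named for their role after their values were seen. The oocyte-list genes *chs-1*, *perm-2*, *egg-1* and *egg-2* were named because they lay below 0. Annotation was that of Ensembl for WBcel235.

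In counts simulated over the 13756 genes of the L1 comparison, 77.7% of 2-fold and 52.7% of 1.5-fold changes were called, and 6.46% of the calls were false (3 draws). Each draw changed 100 genes 2-fold and as many 1.5-fold, whereas 2278 genes were called in the data. The simulated spread followed the trend over genes, without differences between single genes. These shares therefore check the fit and need not hold for the data. Alternatives were DESeq2 1.42.0, other scalings, no filter, a replicate block, all 6 libraries in the L1 fit, other prior counts and each L1 library left out. A planned search of 3′ UTRs for seed matches was not run, as no genome or microRNA sequences were at hand.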

Additional observations from a re-analysis of the deposited data

Results flagged for a closer look

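The genotype difference of *gld-1* was not the same in the 2 stages: the interaction of genotype and stage was -1.64 on the log2 scale (edgeR adjusted p = 1.06e-06), with *gld-1* higher in both mutant larval libraries and lower in the mutant adult library. Adults had 1 library per genotype, and the mutant strain differed between the stages. Germline genes such as *cey-2* (-1.39), *mex-6* (-1.49) and *meg-1* (-1.79) had interactions of like size, so the pattern is not particular to *gld-1*.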

How the results depend on the processing

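In L1 larvae the calls of *gld-1* and *ndk-1* were retained in all 10 alternatives. DESeq2 called 1267 genes against 2278 in the reported fit and 15 partner genes against 27, and total-count scaling called 41 partner genes. Leaving out 1 L1 library gave 1359 to 2396 called genes, with the lowest counts without WT replicate 2 (1359) and WT replicate 1 (1470), 16 to 30 called partner genes (16 without WT replicate 1) and 2 to 3 called members. The interaction had 2 called members in place of 1 without a filter on low counts and, over the libraries left out, 1 to 2. Signs that reversed belonged to values that did not pass the test: *nhl-2* (0.075) and *lin-23* (0.056) with total-count scaling, and, over the libraries left out, *nhl-2* (-0.17 to 0.0037), *vit-1* (-1.11 to 0.33), the stage difference of *egl-1* (-0.18 to 0.54) and the interaction of *lin-23* (-0.17 to 0.012). The cause was not tested. The replicate block called 2249 genes, 27 partner genes and 2 members, and gave 1.43 for *gld-1* and -0.79 for *ndk-1*. It ended the call of *xrn-1* (edgeR adjusted p = 0.0567) and of no other named gene. The numbers are only shared: the differences of replicate 1 and replicate 2 in the 2 genotypes had a correlation of -0.0077 across genes, so pairing was not shown. Among single genes and values, 472 alternative values kept direction and side of the threshold, 53 lost the call, 4 gained it, 7 reversed and 5 adult ratios moved. TMM over the adult libraries alone was added after the data were seen. Depth limits *egl-1*, with 4 to 15 counts per library, and *gld-1* in WT larvae, with 52 and 53 counts.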
